A study of Homo sapiens with 4 samples.

Results

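The insulin receptor gene INSR, the type 1 IGF receptor gene IGF1R, the receptor substrate genes IRS1 and IRS2 and the IGF-binding protein genes IGFBP1, IGFBP2, IGFBP3 and IGFBP4 were examined in 2 hepatocellular carcinoma (HCC) cell lines. The 8 genes were taken by name from a count table of 59652 genes, and all 8 were found. Total RNA of Huh7 cells and of PLC cells, both labelled as wild type, was sequenced, the cells having been kept for 48 h at 5 mM (low) or 25 mM (high) glucose, and the series asks which genes follow the glucose concentration. The base medium of all 4 groups was glucose-free DMEM with 10% fetal bovine serum, penicillin and streptomycin. Each line at each concentration gave 1 library, so no difference has a replicate check, and each line stands for itself and not for HCC in general.

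Insulin and the insulin-like growth factors bind the tyrosine kinase receptors INSR and IGF1R on the cell surface. The activated receptors phosphorylate IRS1 and IRS2, docking proteins that recruit PI3-kinase and so switch on AKT, and AKT keeps FOXO transcription factors out of the nucleus. The IGF-binding proteins are secreted, carry IGF1 and IGF2 and limit or prolong their access to the receptors. In the liver, IGFBP1 and IRS2 are known as genes that FOXO factors switch on in fasting and that insulin represses.

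The libraries held between 16049686 and 30279716 counted reads, with PLC cells in high glucose as the shallowest. Levels are given as FPKM, the reads of a gene divided by its length and by the library total in the customary scaling, so that levels of different genes can be compared. Ratios of 25 to 5 mM carry a 95% exact binomial (Clopper-Pearson) interval, which covers counting error only and compares 2 libraries rather than 2 conditions. Of 10 hepatocyte and liver tumour markers, 10 were over 0.5 FPKM in both Huh7 libraries and 9 in both PLC libraries. By edgeR, 9 of the 10 were lower in PLC (all but HNF4A), and their summed level was 5416 and 5605 FPKM in Huh7 at 5 and 25 mM and 789.8 and 1668 FPKM in PLC. Over all genes tested by edgeR, 21.8% were called lower in PLC. TTR, the marker not over 0.5 FPKM in PLC, had 4 and 0 reads there and was among the 9 called lower. Of 10 markers of other liver cell types, 1 was over 0.5 FPKM in each library, PECAM1 in Huh7 and COL3A1 in PLC, and their summed level lay between 1.07 and 3.02 FPKM.

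Promoter sequence is shown for the receptor substrates, whose levels were opposite in the lines, and for IGFBP4 and IGFBP3, which were high in Huh7 and low in PLC. Each line below holds the 100 bases before the RefSeq start of the gene on GRCh38.p14, written 5′ to 3′ on the strand of the gene. Capitals mark matches to the motifs searched. The RefSeq start of IGFBP3 lies inside the longer gene model of the count table, so its stretch is upstream of that start alone.
IRS2, chr13:109786584-109786683, minus strand: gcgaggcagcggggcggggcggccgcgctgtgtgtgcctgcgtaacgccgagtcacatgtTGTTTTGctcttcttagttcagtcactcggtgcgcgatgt
IRS1, chr2:226799821-226799920, minus strand: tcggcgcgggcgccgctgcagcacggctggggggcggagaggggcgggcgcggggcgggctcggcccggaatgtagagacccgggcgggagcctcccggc
IGFBP4, chr17:40443350-40443449, plus strand: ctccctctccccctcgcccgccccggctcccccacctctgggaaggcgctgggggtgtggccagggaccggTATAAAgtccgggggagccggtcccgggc
IGFBP3, chr7:45921273-45921372, minus strand: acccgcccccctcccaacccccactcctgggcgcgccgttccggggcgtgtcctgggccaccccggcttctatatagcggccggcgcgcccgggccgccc

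The motifs were searched on both strands in windows of 250 bases before and 50 bases from the start, which the RefSeq table held for 7 of the 8 genes, with 3 windows for IGFBP2. IGFBP1 had no entry. CAAAACA, the core of the insulin response element that FOXO factors bind, was found in IRS2 alone among the 7 genes. There it reads TGTTTTG on the gene's strand, its first base lies 40 bases before the start, and 4.92% of all 35116 windows held it. TATAAA, the string searched for the TATA box, was found in IGFBP4, 29 bases before the start, and 11.5% of all windows held it. Strings that differ from it by a base were not searched, such as the tatata in the IGFBP3 stretch above. CACGTG, the E-box, was found in IRS1 after the start, and 7.26% of all windows held it. GTAAACA, another FOXO core, and TGATGCA, the core of a C/EBP-ATF site, were found in none of the 7 genes, against 3.42% and 2.63% of all windows. These are matches of letters, and no binding was measured.

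The 2 lines carried different sets of these RNAs. IRS1, IGFBP4 and IGFBP3 were higher in Huh7, by 3.57-fold, 16.3-fold and 14.5-fold, while INSR, IRS2 and IGFBP1 were higher in PLC, by 2.68-fold, 8.85-fold and 10.8-fold. These fitted folds over both glucose concentrations passed an adjusted p of 0.05 in edgeR's quasi-likelihood test for 6 of 7 genes, with IGF1R as the exception and IGFBP2 too low to test. Over all 23217 genes tested, 21.1% were called higher in PLC and 21.8% higher in Huh7, so a difference between the lines was common. The hepatocyte and liver tumour markers given above also moved with the line, and their part in these differences was not tested. The pair of libraries of a line differ in glucose and are not replicate cultures, and the fit has 1 residual degree of freedom (SE stands for standard error).

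**Figure D1:**
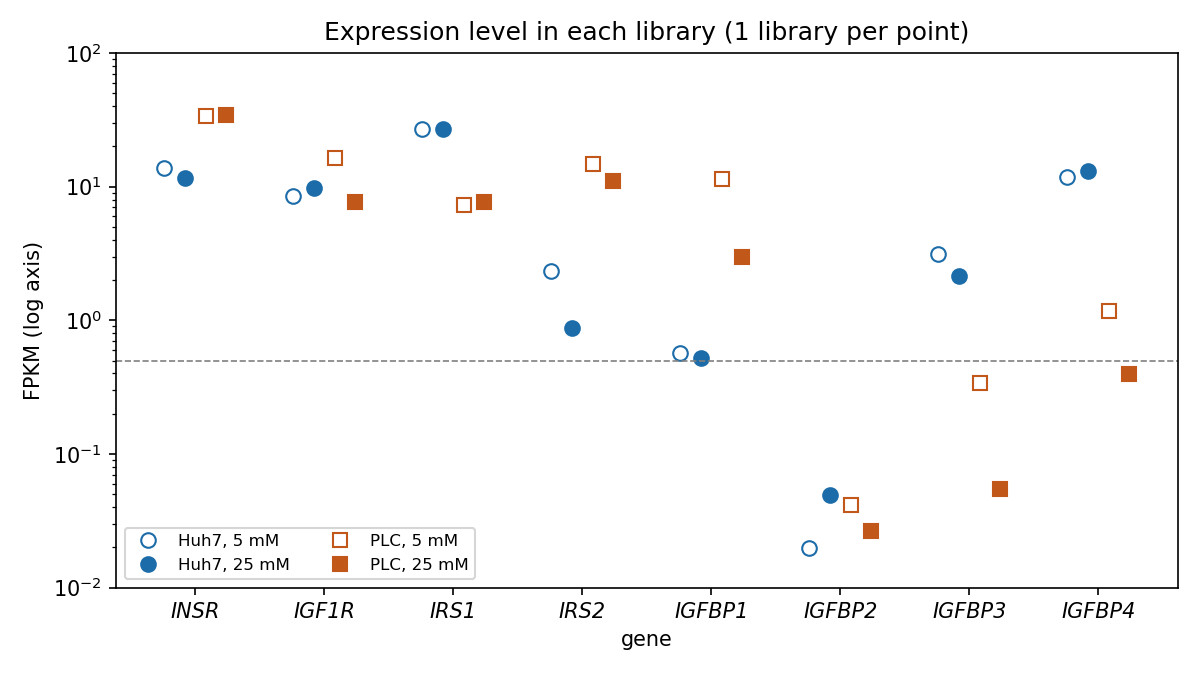
Level of each gene in FPKM (log axis) in Huh7 (circles) and PLC cells (squares) at 5 mM (open) and 25 mM (filled) glucose, 1 library per point, with a dashed line at 0.5 FPKM. IRS1, IGFBP3 and IGFBP4 lie higher in Huh7, INSR, IRS2 and IGFBP1 lie higher in PLC, and IGFBP2 lies under 0.05 FPKM in all 4 libraries.

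INSR, on chromosome 19 from 7112255 to 7294414 (minus strand, GRCh38), had 3195 and 3811 reads in Huh7 at 5 and 25 mM and 11014 and 5971 reads in PLC. Its levels were 13.8, 11.7, 33.6 and 34.3 FPKM in that order. Both PLC libraries lay above both Huh7 libraries, and INSR had the highest level of the 8 genes in PLC. The log2 fold change of PLC over Huh7 cells was 1.42 (SE 0.21, adjusted p = 0.000106 by edgeR's quasi-likelihood test). PLC cells had 2.43 times the Huh7 level at 5 mM (interval 2.34 to 2.53) and 2.94 times at 25 mM (2.82 to 3.06).

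IGF1R, on chromosome 15 from 98648539 to 98964530 (plus strand), had 2538 and 4115 reads in Huh7 and 6895 and 1710 reads in PLC. Its levels were 8.52, 9.81, 16.3 and 7.64 FPKM. PLC cells were the highest in low glucose and the lowest in high glucose, so the lines overlapped. The log2 fold change of PLC over Huh7 cells was 0.30 (SE 0.29, adjusted p = 0.446 by edgeR). At matched glucose, PLC cells had 1.92 times the Huh7 level at 5 mM (interval 1.83 to 2.01) and 0.779 times at 25 mM (0.736 to 0.824). The level of INSR was 1.62 and 1.19 times that of IGF1R in Huh7 at 5 and 25 mM and 2.06 and 4.49 times in PLC.

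IRS1, on chromosome 2 from 226731317 to 226799759 (minus strand), had 5752 and 8063 reads in Huh7 and 2216 and 1235 reads in PLC. Its levels were 27.0, 26.9, 7.35 and 7.73 FPKM. It had the highest level of the 8 genes in both Huh7 libraries. The log2 fold change of PLC over Huh7 cells was -1.83 (SE 0.21, adjusted p = 1.54e-05 by edgeR), and Huh7 cells had 3.68 times the PLC level at 5 mM and 3.48 times at 25 mM.

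IRS2, on chromosome 13 from 109752695 to 109786583 (minus strand), had 410 and 215 reads in Huh7 and 3623 and 1447 reads in PLC. Its levels were 2.35, 0.876, 14.7 and 11.1 FPKM. Both PLC libraries lay above both Huh7 libraries, the opposite order to IRS1. The log2 fold change of PLC over Huh7 cells was 3.15 (SE 0.29, adjusted p = 1.74e-06 by edgeR). IRS2 made up 8.0% and 3.15% of the summed FPKM of IRS1 and IRS2 in Huh7 at 5 and 25 mM, and 66.6% and 58.8% in PLC. The sum itself was higher in both Huh7 libraries, with 29.4 and 27.8 FPKM in Huh7 and 22.0 and 18.8 FPKM in PLC. The exons of IRS2 share bases with those of AL162497.1 on the opposite strand, which had 0 reads in all 4 libraries.

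The binding protein genes also differed in which member prevailed. IGFBP1, on chromosome 7 from 45888360 to 45893660 (plus strand), had 20 and 26 reads in Huh7 and 568 and 79 reads in PLC, or 0.570, 0.526, 11.4 and 3.0 FPKM. Both PLC libraries lay above both Huh7 libraries, with a log2 fold change of 3.43 (SE 0.49, adjusted p = 8.79e-05 by edgeR). Huh7 cells had 0.0499 times the PLC level at 5 mM (interval 0.0302 to 0.0778) and 0.176 times at 25 mM (0.108 to 0.277).

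IGFBP3 lies 18584 bases from IGFBP1 on chromosome 7, from 45912245 to 45921874 on the minus strand, so that the 3′ ends of the neighbours face each other. It had 306 and 294 reads in Huh7 and 47 and 4 reads in PLC, or 3.13, 2.14, 0.340 and 0.0545 FPKM. The order of the lines was opposite to that of its neighbour, with a log2 fold change of -3.86 (SE 0.49, adjusted p = 3.31e-05 by edgeR). Huh7 cells had 9.22 times the PLC level at 5 mM (interval 6.77 to 12.8) and 39.2 times at 25 mM (15.2 to 145), the latter against 4 reads.

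IGFBP4, on chromosome 17 from 40443450 to 40457725 (plus strand), had 556 and 869 reads in Huh7 and 78 and 14 reads in PLC. Its levels were 11.8, 13.1, 1.17 and 0.396 FPKM. Both Huh7 libraries lay above both PLC libraries, with a log2 fold change of -4.03 (SE 0.43, adjusted p = 6.75e-06 by edgeR). Of the summed FPKM of the 4 binding protein genes, IGFBP4 made up 76.0% and 82.8% in Huh7, and IGFBP1 made up 88.1% and 86.3% in PLC.

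IGFBP2, on chromosome 2 from 216632828 to 216664436 (plus strand), had 2 and 7 reads in Huh7 and 6 and 2 reads in PLC. All 4 levels were at most 0.0491 FPKM, and 3 reads stand for 0.0209 to 0.0394 FPKM of this gene. At this depth no difference of IGFBP2 was detectable between lines or glucose concentrations. IGFBP5, its neighbour on chromosome 2 at 7668 bases, had 0 and 2 reads in Huh7 and 0 reads in both PLC libraries.

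**Figure D2:**
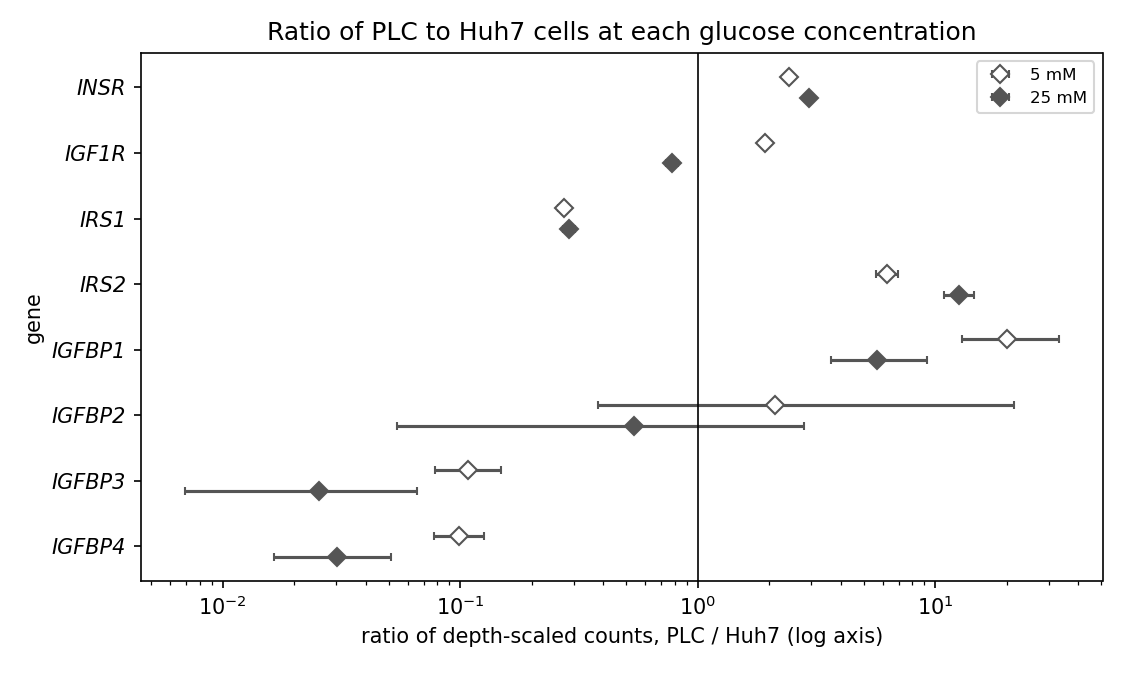
Ratio of PLC to Huh7 cells for each gene (log axis) at 5 mM (open) and 25 mM (filled) glucose, from counts scaled by library totals, with 95% exact binomial intervals for counting error. INSR, IRS2 and IGFBP1 lie above 1 and IRS1, IGFBP3 and IGFBP4 below 1 at both concentrations, while IGF1R moves from 1.92 to 0.779.

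Every one of these genes that passed the thresholds of the study was lower in high glucose. The thresholds ask for more than 0.5 FPKM and a ratio over 1.5 or under 0.67. The study used them to screen long non-coding RNAs, with FPKM values from StringTie, while FPKM here was calculated from gene counts and library totals. Passing the FPKM threshold in either library of a line, and adding 0.1 to both FPKM values, were choices made here. In Huh7 cells 7 of the 8 genes were over 0.5 FPKM, and IRS2 alone passed, with a lower level in high glucose. In PLC cells 6 were over 0.5 FPKM, and IGFBP1, IGFBP4 and IGF1R passed, all with a lower level in high glucose. IGFBP4 was over 0.5 FPKM in PLC at 5 mM alone (1.17 FPKM, and 0.396 FPKM at 25 mM). It entered the count through the library where it was higher. Over all genes with such an FPKM, 14.1% passed as higher and 13.7% as lower in Huh7, and 26.2% passed as higher and 17.0% as lower in PLC. In Huh7 cells 1 of 7 is near the background for lower genes. In PLC 3 of 6 is above it, but this count holds IGFBP4, and the 6 genes were not tested as a set. The median log2 ratio of the members over 0.5 FPKM was -0.10 in Huh7 and -0.75 in PLC, against 0.04 and 0.11 over all genes. The PLC median also holds IGFBP4, so it is no support for a fall of the members. The summed level of the hepatocyte and liver tumour markers was also higher in high glucose in PLC, with 4 of 9 past the threshold as higher and 0 as lower. AFP held the largest part of that sum, with 306 and 1011 FPKM in PLC at 5 and 25 mM. Among those not past the threshold, HNF4A had a ratio of 1.10, APOB 1.05 and GPC3 0.754. The part of these markers in the values below was not tested.

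**Figure D3:**
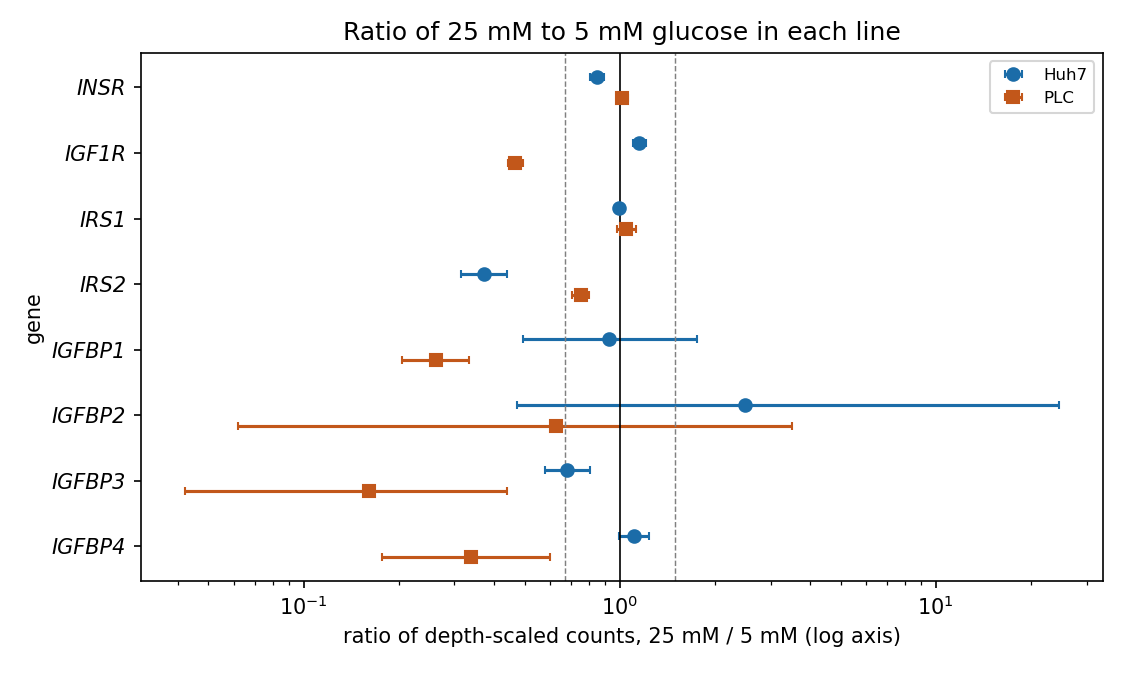
Ratio of 25 mM to 5 mM glucose for each gene (log axis) in Huh7 (circles) and PLC cells (squares), from counts scaled by library totals with nothing added, with 95% exact binomial intervals for counting error and dashed lines at 0.67 and 1.5. IGF1R, IGFBP1, IGFBP3 and IGFBP4 lie under 0.67 in PLC, and IRS2 lies under it in Huh7. IRS1 lies close to 1 in both lines, and INSR lies at 0.848 in Huh7 and 1.02 in PLC. IGFBP2, with 2 to 7 reads a library, lies at 2.49 in Huh7 and 0.629 in PLC, with intervals that span 1.

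IRS2 was lower in high glucose in both lines. The ratio of depth-scaled counts was 0.373 in Huh7 (interval 0.314 to 0.441) and 0.754 in PLC (0.708 to 0.801), the latter not past the threshold of 0.67. Fitted over the pair of lines by edgeR's quasi-likelihood test, with the line as a term, the log2 fold change was -0.98 (SE 0.27, adjusted p = 0.178). IRS1 had ratios of 0.996 (interval 0.963 to 1.03) in Huh7 and 1.05 (0.980 to 1.13) in PLC. The log2 ratio of IRS2 in PLC lay above that in Huh7 by 1.02, with a counting interval of 0.76 to 1.27.

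The receptors differed from each other. INSR had a ratio of 0.848 in Huh7 (interval 0.808 to 0.889) and 1.02 in PLC (0.991 to 1.06), and the ratio in PLC was 0.941 when the libraries were scaled by TMM. IGF1R had a ratio of 1.15 in Huh7 (interval 1.10 to 1.21) and 0.468 in PLC (0.444 to 0.493). The log2 ratios of IGF1R differed by -1.30 between PLC and Huh7 cells, with a counting interval of -1.40 to -1.20. With 1 library per condition this difference could not be tested.

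Among the binding proteins, IGFBP1 had a ratio of 0.924 in Huh7, from 46 reads in all and with an interval of 0.496 to 1.75, and 0.262 in PLC (interval 0.205 to 0.333). IGFBP4 had a ratio of 1.11 in Huh7 (interval 0.997 to 1.24) and 0.339 in PLC (0.177 to 0.603). IGFBP3 had a ratio of 0.683 in Huh7 (interval 0.580 to 0.804) and 0.161 in PLC (0.0420 to 0.439), where it was not over 0.5 FPKM and was not counted. The summed FPKM of the 4 binding protein genes was 15.5 and 15.8 in Huh7 at 5 and 25 mM, and 13.0 and 3.47 in PLC. The log2 ratio in PLC lay below that in Huh7 by 1.82 for IGFBP1, 2.09 for IGFBP3 and 1.71 for IGFBP4, and the counting interval of the difference excluded 0 for these genes.

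With 1 in place of 0.1 added to FPKM, the ratios of lowly expressed genes moved towards 1, to 0.560 for IRS2 in Huh7 and to 0.644 and 0.787 for IGFBP4 and IGFBP3 in PLC.

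For a change common to the lines, edgeR called 0 of the 7 genes at an adjusted p of 0.05, where 0.0646% of all genes were called higher and 0.314% lower in high glucose. Unadjusted, 3 of the 7 lay under 0.05 by edgeR, namely IRS2, IGFBP1 and IGFBP3, as did 1975 of all 23217 genes tested. DESeq2 and limma-voom also called 0 of the 7, with 1 and 2 genes under 0.05 unadjusted. Of all 23217 genes, 1098 and 2219 lay under it by these methods. The 7 fitted log2 fold changes ran from -1.29 (IGFBP1) to -0.05 (IRS1), with a median of -0.55 against -0.01 over all genes.

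The ligands and the other carriers were taken from a list of 12 genes. IGF2, the fetal growth factor, had 646 and 1127 reads in Huh7 (4.83 and 5.99 FPKM) and 0 and 1 read in PLC, so that it was at least 305-fold higher in Huh7 at 5 mM. IGF1 had 87 and 126 reads in Huh7, or 0.502 and 0.516 FPKM, and 6 reads in each PLC library. INS had 0 reads in all libraries. Of the 4 binding protein genes above, Huh7 cells thus held mainly IGFBP4 and IGFBP3, together with the RNA of a ligand. PLC cells held mainly IGFBP1 of these 4, with few reads of any ligand.

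Of the other binding proteins, IGFBP7, which binds IGFs weakly, was higher in PLC, with 1.11 and 0.431 FPKM in Huh7 and 9.29 and 10.9 FPKM in PLC. Its log2 fold change of PLC over Huh7 cells was 3.82 (SE 0.43, adjusted p = 1.03e-05 by edgeR). IGFBP6, which prefers IGF2, had 9 and 42 reads in Huh7 and 0 in both PLC libraries, at least 7.47-fold higher in Huh7 at 25 mM. IGFBPL1 had 0.676 and 0.699 FPKM in PLC and at most 4 reads in Huh7. IGFALS, the subunit that holds IGFs in the ternary complex of serum, had 10, 29, 49 and 8 reads in the 4 libraries. HTRA1, a secreted protease known to cleave IGF-binding proteins, had 4.05 and 4.65 FPKM in PLC and 2 reads in each Huh7 library.

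STC2, the stanniocalcin that inhibits the IGFBP4 protease PAPPA, had 38.1 and 2.98 FPKM in Huh7 and 97.6 and 17.9 FPKM in PLC. It fell in high glucose in both lines, with a log2 fold change of -3.13 (SE 0.28, adjusted p = 0.000429 by edgeR). Its ratios were 0.0783 in Huh7 (interval 0.0716 to 0.0856) and 0.184 in PLC (0.175 to 0.193). Of the 10 genes of this list that were tested, 1 was lower in high glucose, 4 were higher in PLC and 4 higher in Huh7. Over all genes tested, edgeR called 0.314% lower in high glucose, 21.1% higher in PLC and 21.8% higher in Huh7.

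Of 12 other receptors and adaptors, 10 were tested, 0 changed with glucose by edgeR (2 had an unadjusted p-value under 0.05), 3 were higher in PLC and 2 higher in Huh7. An unadjusted p-value under 0.05 for glucose was found by edgeR for 1975 of all 23217 genes. The shares of all genes tested were 21.1% higher in PLC and 21.8% higher in Huh7. IGF2R, the receptor that clears IGF2, had 43.0 and 27.9 FPKM in Huh7 and 48.8 and 32.2 FPKM in PLC, with ratios of 0.647 and 0.659. INSRR had at most 15 reads and IRS4 had 0 reads in all 4 libraries, so IRS1 and IRS2 were the receptor substrates with reads among these 3.

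All 24 genes of the PI3-kinase, AKT and mTOR branch were tested, and 0 changed with glucose by edgeR (4 had an unadjusted p-value under 0.05), while 3 were higher in PLC and 9 higher in Huh7. Among all 23217 genes, 1975 had an unadjusted p-value under 0.05 for glucose by edgeR. The shares of all genes tested were 21.1% higher in PLC and 21.8% higher in Huh7. FOXO1, the factor that insulin restrains, had 5.47 and 3.12 FPKM in Huh7 and 6.78 and 3.61 FPKM in PLC. Its ratios were 0.571 (interval 0.510 to 0.639) and 0.532 (0.471 to 0.60), past the threshold as lower in both lines, and the fitted log2 fold change was -0.94 (SE 0.26, adjusted p = 0.178 by edgeR). PIK3CD, a catalytic subunit gene, passed as higher in both lines, with ratios of 2.84 (interval 1.94 to 4.27) and 2.35 (1.85 to 2.98) and a fitted log2 fold change of 1.28 (SE 0.38, adjusted p = 0.214 by edgeR). In Huh7, PIK3CD was over 0.5 FPKM at 25 mM alone (0.714 FPKM, and 0.251 FPKM at 5 mM). AKT1 and AKT2 passed as higher in PLC, with ratios of 2.01 and 1.67, while FOXO3 passed as lower, with a ratio of 0.347. Of the 22 genes of this list over 0.5 FPKM, 1 passed as higher and 2 as lower in Huh7, and 3 passed as higher and 2 as lower in PLC. Over all genes with such an FPKM, the shares were 14.1% and 13.7% in Huh7 and 26.2% and 17.0% in PLC. The regulatory subunit gene PIK3R2 had 16 and 28 reads in Huh7 and 4 and 0 in PLC.

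Of 11 negative regulators, all tested, 1 fell with glucose, 3 were higher in PLC and 2 higher in Huh7. The shares of all genes tested were 0.314%, 21.1% and 21.8% in that order. TRIB3, a pseudokinase that binds AKT and a known target of the stress factor ATF4, was the member that fell. It had 122 and 23.2 FPKM in Huh7 and 87.7 and 25.6 FPKM in PLC, with a log2 fold change of -2.17 (SE 0.23, adjusted p = 0.00128 by edgeR). ENPP1, which binds the insulin receptor and inhibits its kinase, had 40.9 and 33.4 FPKM in Huh7 and 6 and 0 reads in PLC, at least 1779-fold higher in Huh7 at 25 mM.

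Of 9 FOXO target genes, all tested, 0 changed with glucose by edgeR (2 had an unadjusted p-value under 0.05), 3 were higher in PLC and 2 higher in Huh7. By the same test, 1975 of all 23217 genes had an unadjusted p-value under 0.05 for glucose. The shares of all genes tested were 21.1% higher in PLC and 21.8% higher in Huh7. In PLC cells 4 of the 8 over 0.5 FPKM passed as higher and 0 as lower in high glucose, against 26.2% and 17.0% of all genes. Of these, G6PC, CCNG2 and PIK3IP1 were over 0.5 FPKM at 25 mM alone, with 0.356, 0.459 and 0.330 FPKM at 5 mM. They entered the count through the library where they were higher, so the count is no support for a rise. In Huh7 cells 1 of 7 passed as higher (SESN3) and 2 as lower (PPARGC1A and KLHL24), against 14.1% and 13.7% of all genes. PPARGC1A was over 0.5 FPKM in Huh7 at 5 mM alone (1.24 FPKM, and 0.495 FPKM at 25 mM). The median log2 ratio of the listed genes over 0.5 FPKM was 0.60 in PLC and -0.09 in Huh7, against 0.11 and 0.04 over all genes. The PLC median holds G6PC, CCNG2 and PIK3IP1, and the Huh7 median holds PPARGC1A, so neither is support for a change of the list. PCK1, the key enzyme of gluconeogenesis, had 0 reads in both Huh7 libraries and 145 and 380 reads in PLC, or 0.701 and 3.47 FPKM, a ratio of 4.94 (interval 4.07 to 6.03). G6PC, the glucose 6-phosphatase, had 47 and 85 reads in PLC, a ratio of 3.41 (interval 2.36 to 4.98), and 4 and 7 reads in Huh7. Of the FOXO targets among the 8 genes, IGFBP1 passed as lower in PLC, and IRS2, with a ratio of 0.754, did not pass. SESN3 had 4.56 and 7.09 FPKM in Huh7 and 22 and 12 reads in PLC.

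**Figure D4:**
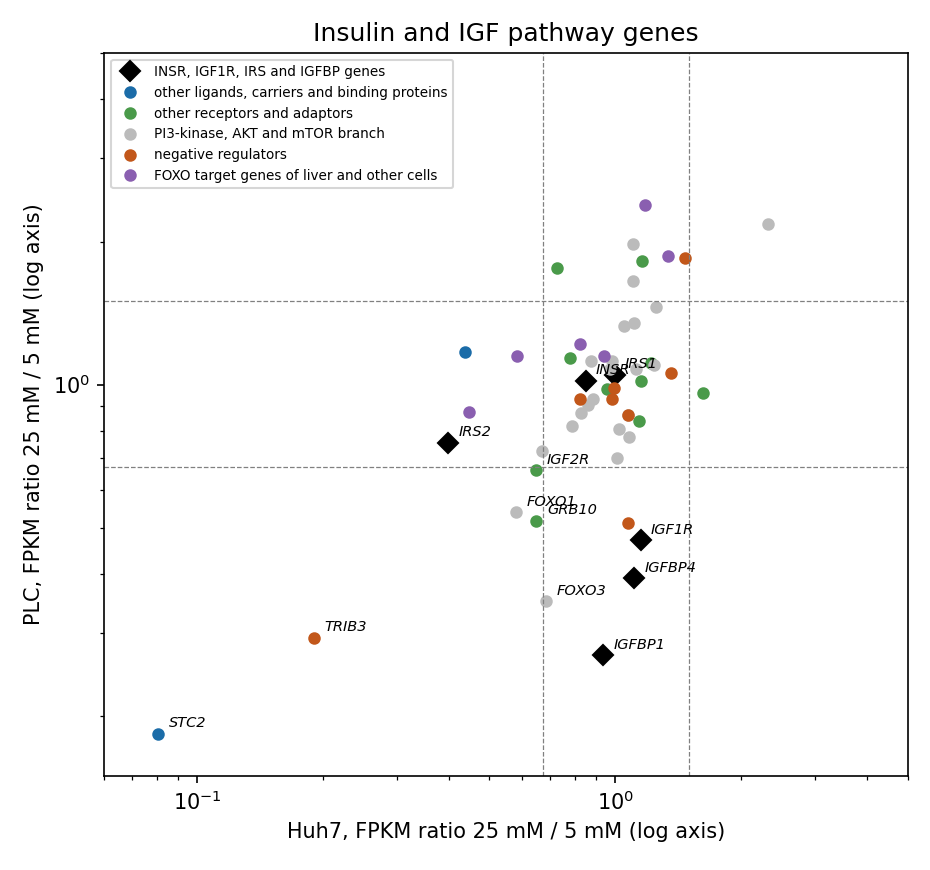
FPKM ratio of 25 mM to 5 mM glucose in Huh7 (x axis) and PLC cells (y axis), both log axes with 0.1 added to FPKM, for the 54 genes of the lists with FPKM over 0.5 in at least 1 library of each line, 6 of them from the 8 genes (diamonds). Dashed lines mark 0.67 and 1.5. STC2 (0.0808 and 0.184) and TRIB3 (0.190 and 0.293) lie at the lower left, IGFBP1, IGFBP4 and IGF1R lie low on the PLC axis alone, and IRS2 lies low on the Huh7 axis.

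For each of the 8 genes, the genes with the most similar pattern were taken by the Euclidean distance of log2(FPKM + 0.1), centred over the 4 libraries, among genes with a mean FPKM of at least 1. With 4 libraries many genes lie close together by this measure. Within a distance of 0.5 there were 798 genes for INSR (nearest RLIM and ALG13), 442 for IGF1R (Z98752.2 and ITPRIP) and 413 for IRS1 (DUTP1 and GCA), of 17024 compared. Fewer lay as close to the others, with 18 for IRS2 (nearest C15orf65 and AC138649.3), 4 for IGFBP1 (RPS3AP46 and AL133476.1), 16 for IGFBP3 (CA12 and SOX4) and 18 for IGFBP4 (nearest ZNF302). DUTP1 and RPS3AP46 are named as pseudogenes, whose reads can be split with near-identical copies. The pattern of IGFBP2 rests on 2 to 7 reads and is set by the added 0.1, and its nearest genes NOP9 and SEC22A lay among 2895 within that distance.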

How the data were processed

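The authors removed rRNA, built directional libraries and deposited the count of reads per gene, whole numbers without normalization. Per the labels, HISAT2, featureCounts and hg38 were used; versions, annotation and strand setting are not given in the sources used here. Gene length in bases is a column of the same table. Of 59657 lines, 5 belong to a broken entry (ANK2) and were left out. Member coordinates were checked against GENCODE and lay on the same chromosome and strand.

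Samples were grouped by their titles. FPKM was calculated from counts, lengths and library totals (16049686 to 30279716 reads); 3 reads stand for 0.0991 to 0.187 CPM. Ratios, thresholds and Clopper-Pearson intervals used scipy 1.17.1. The interval of a difference of log2 ratios is a normal approximation from the counts. Bounds were calculated against 3 reads in the library at 0. edgeR 4.0.16 in R 4.3.3 tested glucose and line in 1 fit over all genes (filterByExpr, TMM, Benjamini-Hochberg). With 1 library per condition, p-values rest on these 4 libraries alone. The 1 residual degree of freedom is how the glucose response differs between the lines, which edgeR moderates over all genes. It holds no separate spread between replicate cultures. The code was tested on simulated data.

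The genes and lists were chosen with earlier results of these data known. Named are the 8 genes, listed ligands, carriers and binding proteins over 0.5 FPKM, IGF2R, INSRR, IRS4, TRIB3, FOXO1, listed genes called for glucose, up to 3 per direction called between lines, and the 2 genes most like each member. Some genes that this rule names are not reported here. INS, IGFBP5 and AL162497.1, TTR, PECAM1, COL3A1, HNF4A, AFP, APOB, GPC3, PIK3CD, AKT1, AKT2, FOXO3, PPARGC1A, KLHL24, CCNG2 and PIK3IP1 were named after their values were seen. Alternatives were constants of 0 and 1, TMM and DESeq2 scaling, other FPKM and ratio thresholds, other filters, no block, DESeq2 1.42.0, limma 3.58.1 and, chosen after seeing the data, removal of the median of 20 GC groups.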

Additional observations from a re-analysis of the deposited data

Results flagged for a closer look

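IGF1R was the gene of the 8 whose ratios of 25 to 5 mM glucose lay on opposite sides of 1 in the 2 lines with both counting intervals clear of 1. The ratio was 1.15 in Huh7 and 0.468 in PLC. This difference was not tested, since each condition has 1 library. The PLC library in high glucose, which carries the lower value, was also the shallowest, with 16049686 reads, and the part of depth in the result was not tested. IGF1R had 1710 reads in it.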

How the results depend on the processing

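The difference between the lines was called in every fit in which the gene was tested for INSR, IRS1, IRS2, IGFBP1, IGFBP3 and IGFBP4. IGF1R, not called, was -0.36 on the log2 scale at 25 mM alone against 0.30 in the fit over both concentrations. For glucose, IRS2 was called in 1 of 6 alternatives, with every gene of at least 1 read kept (log2 fold change -0.99, adjusted p = 0.0244 by edgeR, against a range of 0.0244 to 1). IGFBP4 turned to 0.02 without the cell line term. DESeq2 gave no adjusted p-value for IGFBP1 and IGFBP3, and IGFBP3 was left out with at least 10 counts in every library. Of the ratios under alternatives, 14 of 80 moved beyond the counting interval. INSR and IRS1 in PLC cells changed side of 1 (0.941 and 0.968 by TMM, 0.946 and 0.973 by DESeq2 size factors, 0.968 and 0.994 with GC removed), and IRS2 in PLC cells passed 0.67 with GC removed (0.656). With TMM the log2 ratios move by -0.04 (Huh7) and -0.12 (PLC), and 51.3% of the genes past the thresholds in PLC are higher, against 60.7%. In Huh7 cells 6068 genes passed the thresholds, 3092 with a constant of 1, 3427 with FPKM over 0.5 in both libraries, 11199 without an FPKM filter and 3066 with a ratio over 2 or under 0.5. In PLC cells these were 9409, 5982, 5917, 15409 and 5253. A shared glucose change was called by edgeR for 88 genes, 194 by DESeq2, 526 with at least 1 read, 27 with at least 10 counts in every library, and 0 without the cell line term (52 unadjusted). A line difference was called for 9969 genes, and for 6340 of the fewer genes with at least 10 counts in every library. The causes were not tested. The line term pairs the libraries of a line. The labels give no replicate numbers for a further block, and with 1 library per group no replicate could be left out. Depth limits the ratios of IGFBP2 in both lines, of IGFBP1 in Huh7 and of IGFBP3 and IGFBP4 in PLC.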
